A study of Mus musculus with 6 samples.

Results

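The 41 genes described here encode the machinery that copies DNA. They were chosen by gene symbol from a list covering 7 roles, and all 41 were found once each among the 55573 genes of the deposited tables. Origin licensing was represented by 9 genes, the MCM helicase by 6, helicase activation by 6, the sliding clamp and its loader by 6, the polymerases and primase by 9, lagging-strand processing by 2 and the single-stranded DNA binding complex RPA by 3.

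DNA replication starts at origins that the origin recognition complex (ORC) marks. Cdc6 and Cdt1 then load the ring of MCM proteins onto the DNA before S phase, and geminin blocks Cdt1 once S phase has begun. Cdc45 and the GINS complex switch the MCM ring on as a helicase. Polymerase alpha with primase starts each strand, and polymerases delta and epsilon extend it with the clamp PCNA. Megakaryocytes give rise to platelets and are known for endomitosis, in which DNA is replicated repeatedly without cell division.

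RNA was sequenced from 3 Abcc4-/- and 3 wild-type (WT) mouse samples labelled as megakaryocytes, and the sample titles also contain BM and CD41. Abcc4 encodes a membrane pump that exports cyclic nucleotides and thiopurine drugs, and the series title names megakaryocyte formation and protection against 6-mercaptopurine. The labels give a genotype and no treatment for these samples. The sources used here do not give strain, age, the deleted part of the allele or how the cells were selected. The comparison therefore asks how transcript levels differ between the genotypes.

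The libraries held 67009925 to 99294493 counts in Abcc4-/- and 50440239 to 55123512 in WT. Abcc4 itself stood at 60.1, 60.5 and 62.2 CPM in Abcc4-/- and at 74.2, 71.8 and 75.6 CPM in WT, where CPM stands for counts scaled to a common library size with TMM factors. It was lower in Abcc4-/- (log2 fold change -0.28, SE 0.05, edgeR, adjusted p = 0.0026), and since the deleted part is not given this does not check the genotype labels. The 15 megakaryocyte markers summed to 148 to 185 TPM in Abcc4-/- and 240.1 to 313 TPM in WT, with 10 called lower and 1 higher. TPM is the transcript level scaled by length and library total. The 10 mature neutrophil markers summed to 102808 to 105859 TPM in Abcc4-/- and 54372 to 67885 TPM in WT, and all 10 were called higher. The 11 B progenitor markers summed to 891 to 1012 TPM in Abcc4-/- and 431 to 603 TPM in WT, with 9 called higher, and the 7 granulocyte progenitor markers to 5921 to 6370 TPM in Abcc4-/- and 6331 to 7625 TPM in WT, with 1 called lower. Of the other lists, 3 of 10 erythroid and 6 of 8 T and NK markers were called higher, and 2 of 8 monocyte and macrophage, 3 of 5 eosinophil, basophil and mast, and 5 of 6 stem and progenitor markers were called lower. The erythroid sums (1643 to 2470 TPM in Abcc4-/-, 2255 to 2402 in WT) and the T and NK sums (191 to 198 and 182 to 214) overlapped. The monocyte and macrophage sums overlapped as well, at 3715 to 4059 TPM in Abcc4-/- and 3798 to 4243 TPM in WT. Of the 10 erythroid log2 fold changes, 5 were above 0 and 5 below. Of the 8 monocyte and macrophage log2 fold changes, 3 were above 0 and 5 below. No marker was at 0 in all libraries. The part of these cell types in the results below was not tested. In whole samples, fewer replicating cells and less RNA per cell cannot be told apart.

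The replication machinery genes differed little between the genotypes. On the count scale, 5 of the 41 genes were called higher in Abcc4-/- and 0 were called lower, by an edgeR quasi-likelihood test at a Benjamini-Hochberg adjusted p below 0.05 over all 16493 genes tested. Of all genes tested, 8.61% were called higher, 8.68% lower and 17.3% in either direction. Of the members 12.2% were called, all of them higher. That share lies above the 8.61% called higher and below the 17.3% called in either direction, and the difference was not tested. The 5 genes were the origin licensing factor Cdc6, the polymerase epsilon subunit gene Pole2, the flap endonuclease gene Fen1 and the RPA subunit genes Rpa2 and Rpa3. Their increases ran from 1.13-fold to 1.22-fold. The median log2 fold change of the 41 genes was 0.06, against 0.00091 over all genes tested, and the median absolute value was 0.07, against 0.13. Over the 9287 genes tested in the members' own range of mean log2 CPM, the median absolute value was 0.09 and 19.4% were called.

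On the count scale with TMM factors, the intervals were narrow for most of these genes. They do not cover the choice of scale, and part of the spread between samples may be technical. For 36 of the 41 genes the whole 95% interval of the fold change lay within 1.25-fold in either direction. The same held for 7760 of all 16493 genes tested and for 6888 of the 9287 in the members' range of mean log2 CPM. The standard error of the log2 fold change was 0.05 to 0.09, and the lowest count of any member in any library was 396. The coefficient of variation of CPM between replicates had a median of 3.98% in Abcc4-/- and 3.48% in WT. The 36 genes that were not called had log2 fold changes between -0.10 and 0.19 (edgeR, adjusted p = 0.0682 to 0.992). They are not the same 36 genes, since Orc1 and Gins3 were not called but had wider intervals, while Fen1 and Rpa2 were called and lay within the bound. At an unadjusted p below 0.05 there were 8 members, against 30.9% of all genes tested.

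Promoter sequence was not used to choose the genes. Promoters, taken as 250 bases before to 50 after the start of each gene in RefSeq (build GRCm38.p6), were available for 33 of the 41 members. These had 41 promoter entries, since 6 genes have more than 1, and a gene was counted as holding a word if any of its entries did, for members and for all genes alike. The E2F-type words searched were TTTCCCGC, TTTCGCGC, TTTGCCGC and TTTGGCGC on either strand. E2F factors are the transcription factors known for driving S-phase genes. Such a word was present for 15 of the 33 members (45.5%), in 15 of the 41 entries, against 2.60% of 27025 genes with a promoter and 4.50% of the 11154 of these that were tested here. CCAAT on either strand was present for 21 of 33 (63.6%, against 41.1% of all genes and 42.7% of those tested). TTTGAA or TTCGAA was present for 7 (21.2%, against 21.7% of all genes and 17.1% of those tested). By role, the E2F-type words were found for 4 of 5 MCM genes, 4 of 8 for origin licensing, 4 of 7 for polymerases and primase, 1 of 3 for helicase activation, 1 of 5 for clamp and loader, 1 of 2 for lagging-strand processing and 0 of 3 for RPA. These counts describe letters in a window and are not binding sites.

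The promoters of 5 members are shown because they cover both outcomes: Cdc6, Pole2 and Rpa3 were called higher, Mcm6 was not called and has most words of the set, and Cdt1 had the lowest fold change. They are given 5′ to 3′ on the strand of the gene, with the E2F-type words, or their reverse complements, in capitals. The Cdc6 window lies at chr11:98907901-98908200 (plus strand), that of Pole2 at chr12:69228141-69228440 (minus), Mcm6 at chr1:128359656-128359955 (minus), Cdt1 at chr8:122567765-122568064 (plus) and Rpa3 at chr6:8259092-8259391 (minus). The Cdc6 window follows the RefSeq start and lies wholly inside the gene positions given further below, which come from another annotation with an earlier start.
Cdc6: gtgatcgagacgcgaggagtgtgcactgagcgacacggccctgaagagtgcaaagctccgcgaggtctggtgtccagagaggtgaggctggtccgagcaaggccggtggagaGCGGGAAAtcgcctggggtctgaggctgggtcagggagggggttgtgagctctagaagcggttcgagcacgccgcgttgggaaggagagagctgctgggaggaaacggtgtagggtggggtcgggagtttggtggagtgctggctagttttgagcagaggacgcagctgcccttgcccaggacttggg
Pole2: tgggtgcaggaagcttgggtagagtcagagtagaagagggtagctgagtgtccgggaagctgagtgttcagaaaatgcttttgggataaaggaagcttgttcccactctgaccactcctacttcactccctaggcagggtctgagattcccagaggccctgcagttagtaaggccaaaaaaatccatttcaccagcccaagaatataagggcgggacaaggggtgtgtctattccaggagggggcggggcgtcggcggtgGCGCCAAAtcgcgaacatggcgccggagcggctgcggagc
Rpa3: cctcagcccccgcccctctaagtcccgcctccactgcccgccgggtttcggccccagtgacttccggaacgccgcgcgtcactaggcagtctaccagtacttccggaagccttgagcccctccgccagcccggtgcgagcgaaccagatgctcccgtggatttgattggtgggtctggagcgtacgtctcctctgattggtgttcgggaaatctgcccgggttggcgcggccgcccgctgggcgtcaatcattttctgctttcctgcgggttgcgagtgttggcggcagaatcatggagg
Mcm6: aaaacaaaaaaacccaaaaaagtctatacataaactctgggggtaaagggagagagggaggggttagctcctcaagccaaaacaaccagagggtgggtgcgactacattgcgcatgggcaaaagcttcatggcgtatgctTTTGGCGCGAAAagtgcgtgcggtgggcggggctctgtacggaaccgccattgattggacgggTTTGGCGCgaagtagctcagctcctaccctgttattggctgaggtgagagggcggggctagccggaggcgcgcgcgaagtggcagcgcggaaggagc
Cdt1: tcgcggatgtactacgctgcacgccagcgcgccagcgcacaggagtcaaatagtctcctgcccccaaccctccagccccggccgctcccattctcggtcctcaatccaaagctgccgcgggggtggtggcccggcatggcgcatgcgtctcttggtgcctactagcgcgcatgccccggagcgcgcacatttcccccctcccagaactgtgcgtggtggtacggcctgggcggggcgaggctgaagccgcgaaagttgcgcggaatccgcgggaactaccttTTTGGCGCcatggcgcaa
Cdc6, Pole2 and Cdt1 each hold 1 such word, Mcm6 holds 3, of which 2 overlap, and Rpa3 holds none. The members called on counts therefore include promoters with and without the word.

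The sign of the members' fold changes depended on a scaling that moved all genes tested with them. With CPM, 35 of the 41 log2 fold changes were above 0 and 6 below. With log2(TPM + 1), a scale that understates the change of low genes, 15 were above 0 and 26 below, with a median of -0.03, against -0.06 for all genes tested. With log2(TPM + 1) centred on the median gene, 33 were above 0 and 8 below, with a median of 0.06. The members' median minus that of all genes tested was 0.06 on counts, 0.03 on log2(TPM + 1) and between 0.03 and 0.07 over all 18 alternatives. The summed level of the 41 genes was 2634, 2537 and 2608 TPM in Abcc4-/- and 2627, 2637 and 2680 TPM in WT, and the groups overlapped. By role, the origin licensing sums were 288 to 301 TPM in Abcc4-/- and 303 to 323 TPM in WT, with no overlap. The polymerase and primase sums were 327 to 330 TPM in Abcc4-/- and 341 to 348 TPM in WT, also with no overlap. The sums of each other role overlapped. No sum was tested, and these sums carry the TPM scaling on which the median of all genes tested was also below 0. After the 10 neutrophil markers were left out and each library rescaled to the same total, an alternative chosen after seeing the data, 29 log2 fold changes were above 0 and 12 below, with a median of 0.03.

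**Figure D1:**
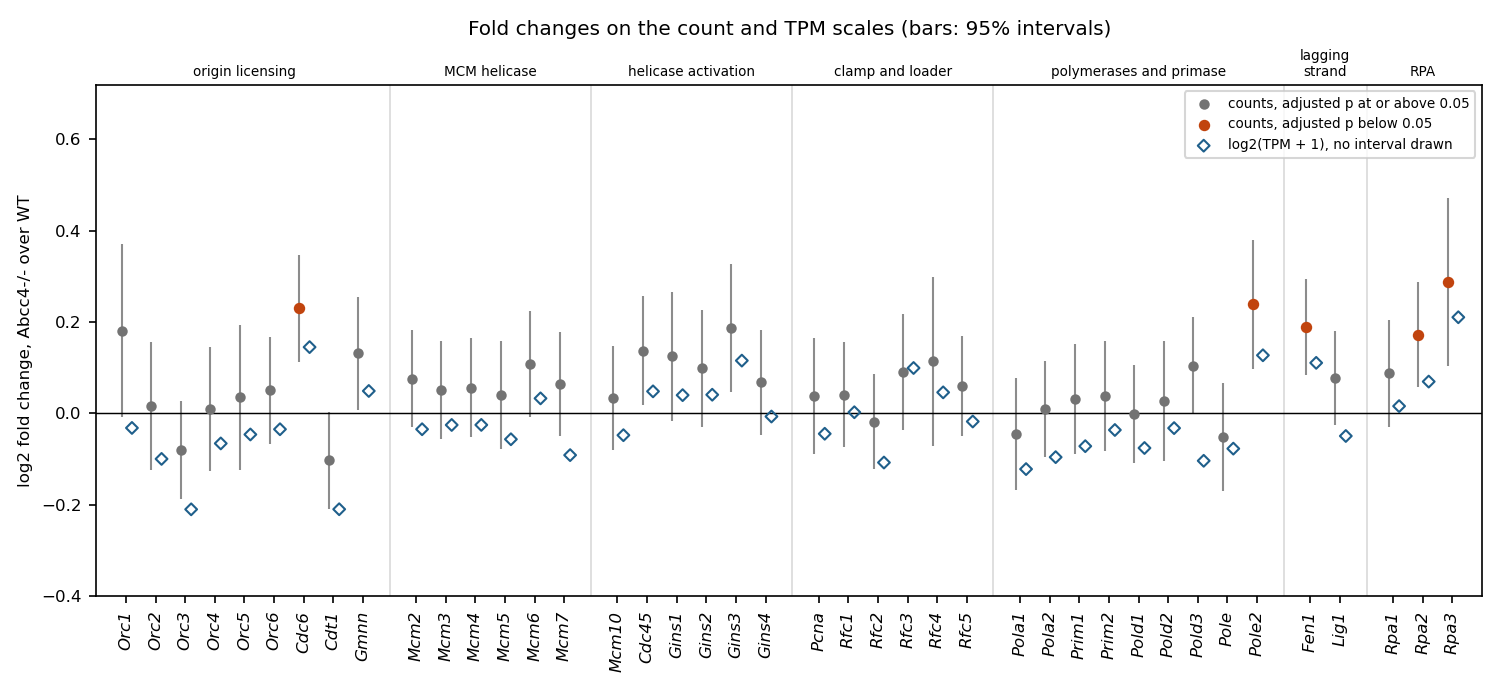
Log2 fold change of each replication gene, Abcc4-/- over WT, from counts (filled circles with 95% intervals; red where the adjusted p was below 0.05) and from log2(TPM + 1) (open diamonds), with the genes grouped by role. The count-scale values lie between -0.10 and 0.29, and most diamonds lie below the circle of the same gene.

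Among the libraries, Abcc4-/- replicate 1 gave the highest CPM of its group for 35 of the 41 genes. Its median log2 ratio to the WT mean over the members was 0.12, against 0.03 for Abcc4-/- replicate 2 and 0.04 for Abcc4-/- replicate 3. Abcc4-/- replicate 2 was the lowest of its group for 24 genes. In WT, replicate 1 was the highest for 15 genes, replicate 2 for 16 and replicate 3 for 10, and replicate 3 was the lowest for 24. Without Abcc4-/- replicate 1 the median of the members was 0.03 and 1 member, Cdc6, was called. Without Abcc4-/- replicate 2 the only member called was Cdc6 as well, without Abcc4-/- replicate 3 there were 3 (Cdc6, Fen1 and Rpa3), without WT replicate 1 there were 2 (Cdc6 and Fen1) and without WT replicate 3 there were 3 (Cdc6, Pole2 and Fen1). In CPM the groups did not overlap for 16 members that were higher and 2 that were lower, where 18.4% and 18.3% of all genes tested did the same. In shares this was 43.9% of the members and 36.8% of all genes tested. In TPM they did not overlap for 6 members that were higher (Cdc6, Gins3, Rfc3, Pole2, Fen1 and Rpa3) and 7 that were lower (Orc3, Cdt1, Mcm10, Rfc2, Pola1, Pold1 and Pold3). Of all genes tested, 9.46% were higher and 27.8% lower without overlap in TPM.

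**Figure D2:**
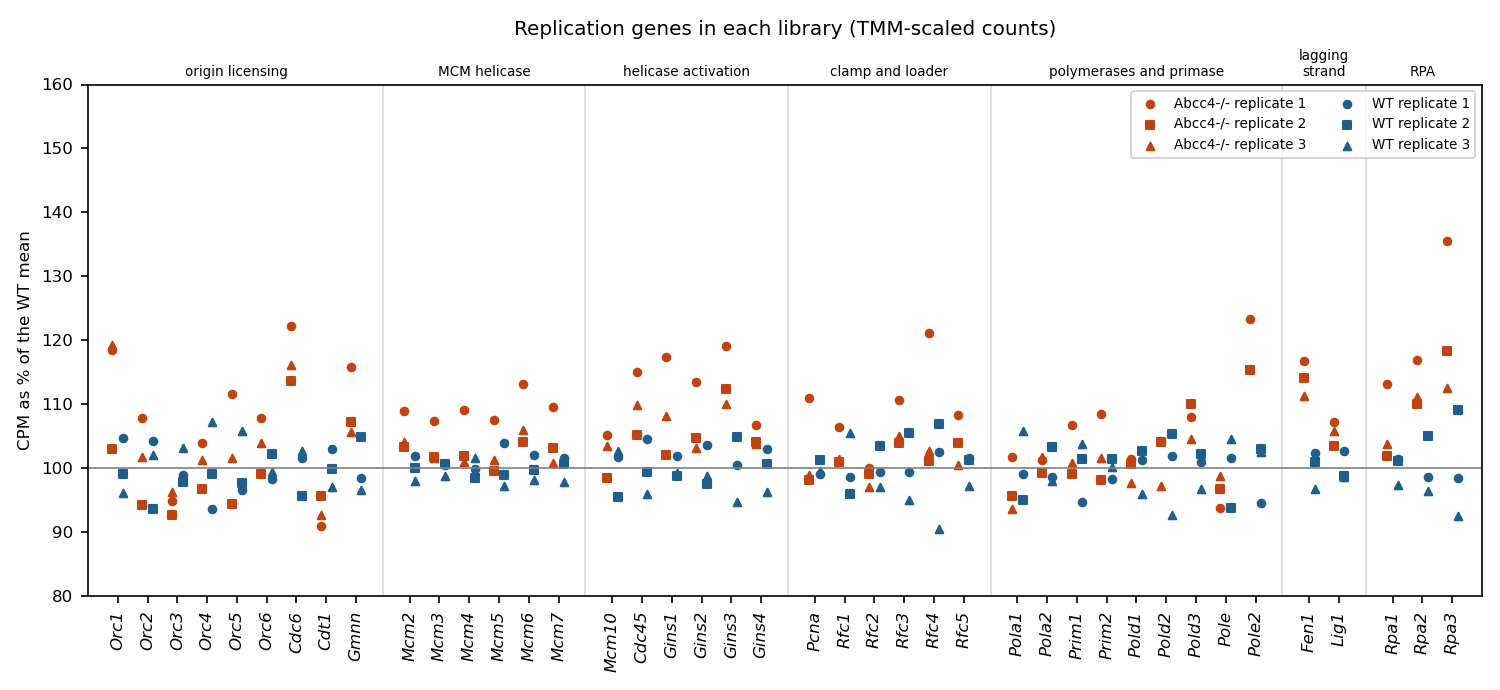
CPM of each replication gene in each library as a percentage of the WT mean of that gene, on an axis that starts at 80%, with Abcc4-/- libraries in red and WT libraries in blue and the replicate given by the symbol. All values lie between 90.5% and 136%, and Abcc4-/- replicate 1 (red circles) is the highest Abcc4-/- library for 35 of the 41 genes.

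Within origin licensing, Cdc6 was higher in Abcc4-/-, and the other 8 genes were not called. Cdc6 is the ATPase that joins ORC at origins and helps to load the MCM ring. It stood at 48.9, 45.4 and 46.4 CPM in Abcc4-/- and at 40.6, 38.2 and 41.1 CPM in WT. Every Abcc4-/- library lay above every WT library. The increase was 1.17-fold (log2 fold change 0.23, SE 0.05, edgeR, adjusted p = 0.0128). The call was kept when any 1 library was left out and ended with log2(TPM + 1) and log2(TPM + 0.1) (adjusted p = 0.127 and 0.129).

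Cdt1, the partner of Cdc6 in loading MCM, had the lowest log2 fold change of all 41 genes. It stood at 88.9, 93.4 and 90.6 CPM in Abcc4-/- and at 100.6, 97.6 and 94.8 CPM in WT, and each Abcc4-/- library was below each WT library. The fold change of 0.931 had a 95% interval of 0.866 to 1.002 and was not called on counts (edgeR, adjusted p = 0.173). In TPM it stood at 62.1, 65.1 and 65.5 in Abcc4-/- and at 75.5, 72.3 and 75.5 in WT, and with log2(TPM + 1) it was the only member called (limma, log2 fold change -0.21, adjusted p = 0.0255). That call was absent with log2(TPM + 1) centred on the median gene and with log2(TPM + 1) rescaled without the neutrophil markers.

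Gmnn encodes geminin, the inhibitor of Cdt1. It stood at 45.3, 42.0 and 41.4 CPM in Abcc4-/- and at 38.5, 41.1 and 37.8 CPM in WT, and it was not called (1.10-fold, 95% interval 1.005 to 1.19, edgeR, adjusted p = 0.139). A ratio within a library does not depend on the scaling between libraries, and the ratios of Cdt1 were computed after its values were seen. Cdt1 over Gmnn in TPM was 0.839, 0.925 and 0.923 in Abcc4-/- and 1.11, 1.02 and 1.09 in WT. Cdc6 over Cdt1 in TPM was 0.379, 0.356 and 0.367 in Abcc4-/- and 0.288, 0.280 and 0.288 in WT. Neither of these ratios overlapped between the genotypes. They are among 5 such ratios computed, of which Rpa1 over Rpa3 overlapped, at 1.68, 1.71 and 1.874 in Abcc4-/- and 2.03, 1.871 and 2.14 in WT. Because Cdt1 was picked for its low values, the separation of its ratios follows in part from that choice and is no test. How often such ratios separate among all gene pairs was not computed. A TPM ratio also depends on the length assigned to each gene, and it does not say which gene changed.

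The 6 subunits of ORC, the complex that binds origins, were not called, and their levels per length differed widely. Orc6 was the most abundant with a mean of 43.2 TPM over the 6 libraries, followed by Orc3 (36.1 TPM), Orc4 (26.3 TPM), Orc2 (17.8 TPM), Orc5 (13.1 TPM) and Orc1 (4.59 TPM). Orc1, the ATPase subunit of the complex whose abundance varies over the cell cycle in human cells, had 9.33, 8.11 and 9.39 CPM in Abcc4-/- and 8.24, 7.80 and 7.57 CPM in WT. The groups overlapped, and its 95% interval of 0.995 to 1.29 in fold change was wide for this module (edgeR, adjusted p = 0.178). Orc3 was lower in every Abcc4-/- library, at 44.5, 43.4 and 45.1 CPM against 46.4, 45.8 and 48.3 CPM in WT, without passing the test (fold change 0.946, 95% interval 0.879 to 1.02, adjusted p = 0.296). Orc2, Orc4, Orc5 and Orc6 had fold changes of 1.012, 1.006, 1.02 and 1.04, with overlapping groups.

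None of the 6 genes of the MCM ring was called. The ring is the motor of the replicative helicase, with 1 copy of each of Mcm2 to Mcm7. All 6 log2 fold changes were small and above 0 on the count scale, from 0.04 for Mcm5 to 0.11 for Mcm6. With log2(TPM + 1) all but Mcm6 were below 0. Mcm6, which had the smallest p of the group, stood at 341, 314 and 319.5 CPM in Abcc4-/- and at 308, 301 and 296 CPM in WT. The groups did not overlap, and the fold change was 1.08 with a 95% interval of 0.995 to 1.17 (edgeR, adjusted p = 0.192). The fold changes of the others were 1.05 for Mcm2, 1.04 for Mcm3, 1.04 for Mcm4, 1.03 for Mcm5 and 1.05 for Mcm7, and no 95% interval of the group reached below 0.948 or above 1.17.

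Although the ring holds its subunits in equal number, their transcripts were not equally abundant. Mcm7 (166 TPM over the 6 libraries), Mcm6 (159 TPM), Mcm5 (158 TPM) and Mcm3 (158 TPM) lay close together, and their values overlapped between neighbours. Mcm2 (85.2 TPM) and Mcm4 (65.0 TPM) were lower in every library than those 4 and did not overlap with each other. The ratio of Mcm7 to Mcm4 in TPM, chosen after the levels were seen, was 2.49, 2.50 and 2.51 in Abcc4-/- and 2.66, 2.59 and 2.61 in WT, with no overlap. On counts the log2 fold changes of Mcm7 (0.064) and Mcm4 (0.057) were nearly equal, so the separation in TPM is not a difference seen on both scales.

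The 6 genes of helicase activation had log2 fold changes with a median of 0.11, and 0 of them were called. Cdc45 and the 4 GINS proteins join the MCM ring to form the active helicase, and Mcm10 is needed to fire it. Gins3 had the smallest p of the group. It stood at 17.99, 17.0 and 16.6 CPM in Abcc4-/- and at 15.2, 15.8 and 14.3 CPM in WT, with no overlap (1.14-fold, 95% interval 1.03 to 1.255, edgeR, adjusted p = 0.0682). Cdc45 stood at 58.0, 53.0 and 55.4 CPM in Abcc4-/- and at 52.7, 50.1 and 48.4 CPM in WT, again with no overlap and without passing the test (1.10-fold, adjusted p = 0.112). Gins1, Gins2, Gins4 and Mcm10 had fold changes of 1.09, 1.07, 1.05 and 1.02 (adjusted p = 0.214 to 0.713). Gins3 had the lowest level per length of the group, 9.42 TPM over the 6 libraries, while the other 5 genes lay between 30.4 and 38.9 TPM.

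None of the 6 clamp and loader genes was called, and in CPM the groups overlapped for each of them. Pcna encodes the ring that tethers polymerases to DNA and was the most abundant of all 41 genes, at 329, 297 and 308 TPM in Abcc4-/- and 314, 320.0 and 329 TPM in WT. Its fold change on counts was 1.03 (95% interval 0.940 to 1.12, edgeR, adjusted p = 0.711). Rfc1 to Rfc5 form the loader that opens PCNA. Rfc3 had the smallest p of the group, at 31.2, 29.3 and 29.6 CPM in Abcc4-/- and 28.0, 29.8 and 26.8 CPM in WT, with overlapping groups (1.07-fold, adjusted p = 0.315). Rfc1, Rfc2, Rfc4 and Rfc5 had fold changes of 1.03, 0.988, 1.08 and 1.04, and the interval of Rfc4 reached 1.23. In TPM the groups did not overlap for Rfc2, at 186, 190.3 and 192 TPM in Abcc4-/- and 202, 209 and 201 TPM in WT, nor for Rfc3, at 37.77, 35.14 and 36.73 TPM in Abcc4-/- and 33.95, 35.13 and 33.05 TPM in WT. These separations run in opposite directions, and the closest Rfc3 values of the groups are nearly equal. Rfc2 stood apart in level, with 197 TPM over the 6 libraries against 35.3 to 51.7 TPM for the other loader subunits.

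**Figure D3:**
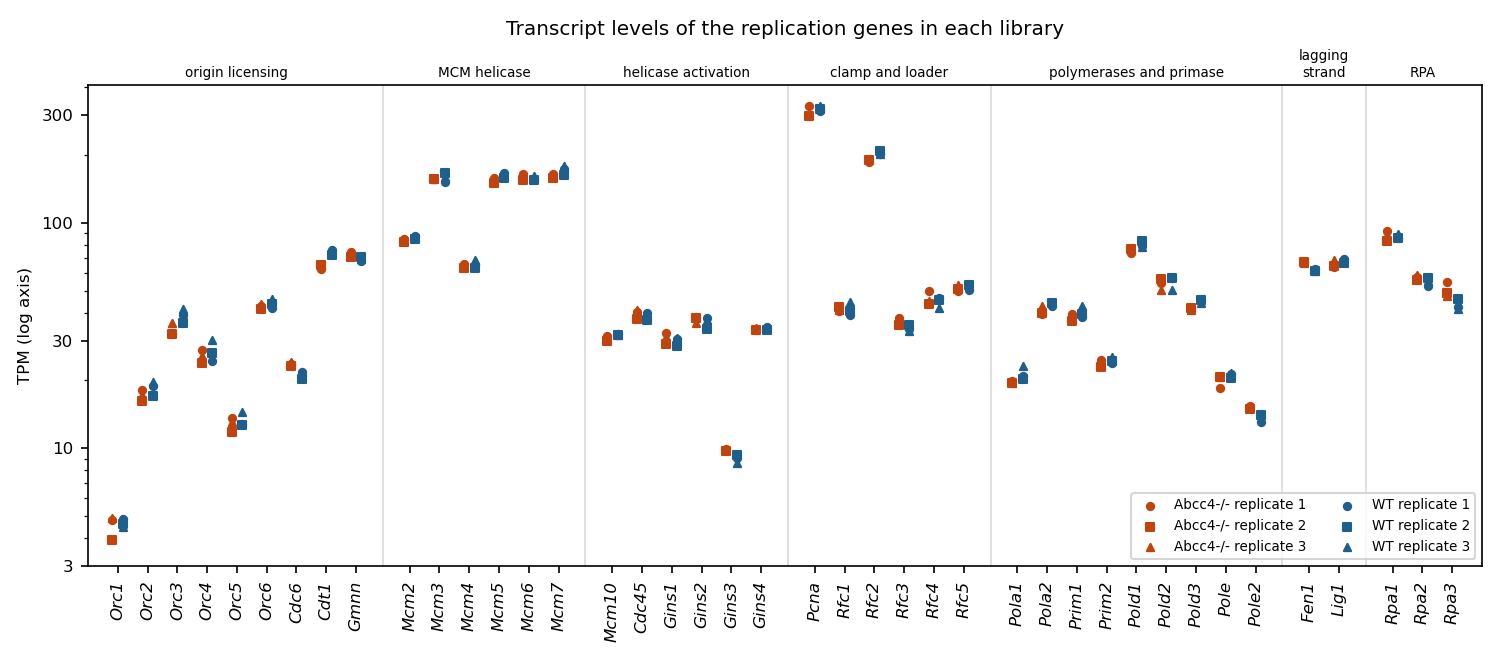
TPM of each replication gene in each library on a log axis, with Abcc4-/- libraries in red left of WT libraries in blue and the genes grouped by role. Levels run from 4.59 TPM for Orc1 to 316 TPM for Pcna (means over the 6 libraries), a span much larger than the difference between the genotypes for each gene.

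Of the 9 polymerase and primase genes, Pole2 was called higher. Pole2 encodes the second subunit of polymerase epsilon, the leading-strand enzyme. It stood at 17.0, 15.8 and 15.9 CPM in Abcc4-/- and at 12.99, 14.2 and 14.1 CPM in WT, with no overlap. The increase was 1.18-fold (log2 fold change 0.24, SE 0.06, edgeR, adjusted p = 0.0258). The catalytic subunit gene Pole did not show it, at 66.1, 68.2 and 69.7 CPM in Abcc4-/- and 71.7, 66.1 and 73.7 CPM in WT (fold change 0.965, 95% interval 0.889 to 1.05, adjusted p = 0.564). The difference between the changes of Pole2 and Pole was not tested. The Pole2 call ended when any 1 of the 3 Abcc4-/- replicates or WT replicate 1 was left out (adjusted p = 0.0538 to 0.0938), and on log2(TPM + 1), log2(TPM + 0.1) and the rescaled TPM (0.083 to 0.204).

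Pold3, an accessory subunit of the lagging-strand polymerase delta, stood at 64.9, 66.0 and 62.8 CPM in Abcc4-/- and 60.6, 61.4 and 58.1 CPM in WT. Each Abcc4-/- library was above each WT library in CPM, whereas in TPM each was below, at 41.8, 42.0 and 41.1 TPM in Abcc4-/- against 45.2, 45.3 and 44.0 TPM in WT. It was not called on either scale (edgeR, adjusted p = 0.171). The other delta subunits Pold1 and Pold2 had fold changes of 0.999 and 1.02. Pola1 and Pola2, which encode polymerase alpha subunits, had fold changes of 0.970 and 1.007, and the primase genes Prim1 and Prim2 of 1.02 and 1.03. Over the 9 genes the median was 0.03 on the log2 scale.

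Fen1 was called higher and Lig1 was not. Fen1 removes the flaps that are left between Okazaki fragments, and DNA ligase 1 then seals the nick. Fen1 stood at 106, 104 and 101 CPM in Abcc4-/- and at 93.2, 92.0 and 88.1 CPM in WT, with no overlap. In TPM its replicates were tight, at 66.7, 66.9 and 66.7 in Abcc4-/- and 62.4, 61.5 and 61.4 in WT. The increase was 1.14-fold (log2 fold change 0.19, SE 0.05, edgeR, adjusted p = 0.0195), and the call ended without Abcc4-/- replicate 1 or 2 and with log2(TPM + 1) and log2(TPM + 0.1) (adjusted p = 0.0598 to 0.122). Lig1 stood at 131, 127 and 129.8 CPM in Abcc4-/- and at 126, 121 and 121 CPM in WT (1.05-fold, 95% interval 0.983 to 1.13, adjusted p = 0.292).

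Rpa2 and Rpa3 were called higher among the 3 RPA genes, and Rpa1 was not. RPA coats single-stranded DNA at the fork and in repair, and Rpa1 carries most of its DNA binding domains. Rpa3 had the largest log2 fold change of all 41 genes. It stood at 20.7, 18.1 and 17.2 CPM in Abcc4-/- and at 15.0, 16.7 and 14.1 CPM in WT, with no overlap (1.22-fold, log2 fold change 0.29, SE 0.08, edgeR, adjusted p = 0.0362). Rpa2 stood at 65.0, 61.2 and 61.8 CPM in Abcc4-/- and at 54.8, 58.4 and 53.6 CPM in WT, also with no overlap (1.13-fold, log2 fold change 0.17, SE 0.05, adjusted p = 0.0437). Rpa1 stood at 158, 142 and 145 CPM in Abcc4-/- and at 141, 141 and 136 CPM in WT (1.06-fold, 95% interval 0.979 to 1.15, adjusted p = 0.298). Rpa3 lost its call without Abcc4-/- replicate 1 or 2 or WT replicate 1 or 3 and with log2(TPM + 1) and log2(TPM + 0.1) (adjusted p = 0.0734 to 0.139). The Rpa2 call ended when any 1 of the 3 Abcc4-/- replicates or WT replicate 1 or 3 was left out, and on all 4 TPM scales tried (adjusted p = 0.0863 to 0.386).

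Between the roles, the median log2 fold change on counts ran from 0.03 in the polymerases and primase and 0.03 in origin licensing through 0.05 in clamp and loader, 0.06 in the MCM helicase, 0.11 in helicase activation and 0.13 in lagging-strand processing to 0.17 in RPA. No test between roles was made, since the members are not replicates, and the RPA range (0.09 to 0.29) overlapped with those of origin licensing (-0.10 to 0.23) and the polymerases and primase (-0.05 to 0.24). With log2(TPM + 1) the medians of origin licensing (-0.05), the MCM helicase (-0.03), clamp and loader (-0.0076) and the polymerases and primase (-0.08) were below 0, and those of helicase activation (0.04), lagging-strand processing (0.03) and RPA (0.07) remained above 0.

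In the genome the 41 genes are spread over 14 chromosomes of GRCm38, with 7 on chromosome 5 and 6 on chromosome 8, and 0 on chromosome 14, which carries Abcc4. Cdc6 lies on chromosome 11 (positions 98907801 to 98923940, plus strand), Pole2 on chromosome 12 (69201773 to 69228195, minus), Fen1 on chromosome 19 (10199132 to 10204169, minus), Rpa2 on chromosome 4 (132768332 to 132778752, plus) and Rpa3 on chromosome 6 (8255936 to 8259173, minus).

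Genes that act beside the replication machinery were called in both directions, 7 higher and 4 lower of 80 entries in 4 lists. That was 13.8% of the entries, against 17.3% of all genes tested (8.61% higher and 8.68% lower). By list, 8.82% of replication partners, 22.2% of deoxynucleotide supply genes, 25% of E2F and RB regulators and 5.88% of mitosis genes were called. Of 33 replication partners, counted as 34 entries because Chtf8 has 2 identifiers that may share reads, 2 were called higher and 1 lower (median log2 fold change 0.04). Ccne2, the cyclin E2 gene that pairs with Cdk2 at the start of S phase, had 40.6, 35.1 and 38.0 CPM in Abcc4-/- and 30.003, 27.4 and 26.8 CPM in WT (1.35-fold, edgeR, adjusted p = 0.0015). Ticrr, the gene of treslin, which brings Cdc45 to the MCM ring, fell to 43.2, 44.9 and 44.6 CPM in Abcc4-/-, against 58.4, 51.7 and 65.3 CPM in WT (log2 fold change -0.40, adjusted p = 0.0048). Both had non-overlapping groups, and these changes were larger than that of any of the 41 members. Donson, a further helicase activation factor, was called at 1.15-fold (adjusted p = 0.039) and lost that call in 11 of 18 alternatives.

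Of the 9 genes that supply deoxynucleotides, 2 were called higher and 0 lower, with a median of 0.14 on the log2 scale. Dck, the deoxycytidine kinase gene of nucleoside salvage, had 204, 189.7 and 185 CPM in Abcc4-/- and 167, 149 and 165 CPM in WT (1.20-fold, edgeR, adjusted p = 0.0114). Rrm2, the small subunit of ribonucleotide reductase, had 232, 211 and 206 CPM in Abcc4-/- and 192, 189 and 182 CPM in WT (1.16-fold, adjusted p = 0.027). The Dck call ended without Abcc4-/- replicate 1, and the Rrm2 call without Abcc4-/- replicate 1 or 2 or WT replicate 2 or 3 and with log2(TPM + 1) centred.

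Among 20 E2F and RB regulators, 3 were called higher and 2 lower (median log2 fold change 0.05). The activator genes E2f3 and E2f2 rose, E2f3 with 31.0, 30.5 and 30.9 CPM in Abcc4-/- and 23.9, 26.9 and 23.5 CPM in WT (1.24-fold, edgeR, adjusted p = 0.0052) and E2f2 by 1.13-fold (adjusted p = 0.0264, chosen after its value was seen). Tfdp1, the dimer partner of E2F factors, rose 1.15-fold (adjusted p = 0.0193). Foxm1, which drives genes of G2 and mitosis, fell to 122, 127 and 126 CPM in Abcc4-/-, against 149.9, 139.5 and 153 CPM in WT (log2 fold change -0.24, adjusted p = 0.0093). E2f8, an atypical repressor, was also called lower (log2 fold change -0.20, adjusted p = 0.035, chosen after its value was seen). The E2f2 call ended when any 1 Abcc4-/- replicate or WT replicate 2 was left out, the Tfdp1 call without Abcc4-/- replicate 1 or 2, and the E2f8 call when any 1 Abcc4-/- replicate or WT replicate 1 or 3 was left out. The Foxm1 call ended with log2(TPM + 1) centred and with the TPM rescaled without neutrophil markers (adjusted p = 0.0789 and 0.0953), and the E2f8 call with the rescaled TPM. E2f1 and Rb1 were not called (log2 fold changes -0.03 and -0.13, named after their values were seen).

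Of 17 mitosis genes, 0 were called higher and 1 lower (median log2 fold change -0.06). Cenpa, the centromeric histone gene, fell to 126, 121 and 121 CPM in Abcc4-/-, against 139, 136 and 147 CPM in WT (log2 fold change -0.20, edgeR, adjusted p = 0.0203), and the call ended without Abcc4-/- replicate 2 or 3 and with log2(TPM + 1) centred or rescaled (adjusted p = 0.07 to 0.208). Bub1 and Aurka, kinases of mitosis, were next and did not pass on counts (log2 fold changes -0.13 and -0.13, adjusted p = 0.138 and 0.143). The proliferation marker Mki67, named after its value was seen, had a log2 fold change of -0.12 (adjusted p = 0.473). With log2(TPM + 1) no gene of the 4 lists was called higher and 6 were called lower.

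**Figure D4:**
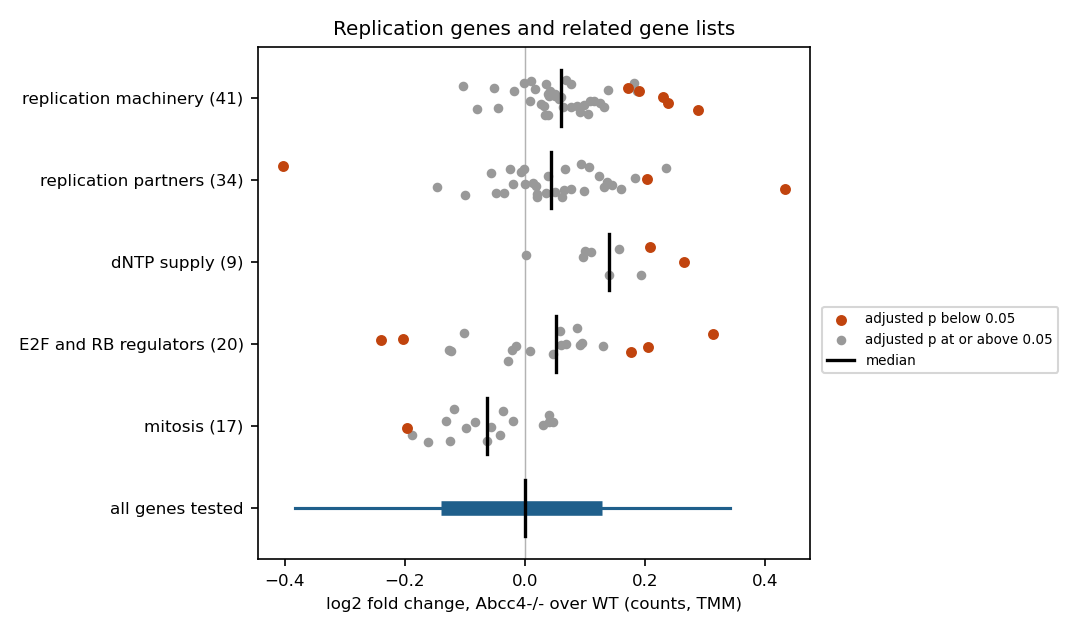
Log2 fold change on counts, Abcc4-/- over WT, of every gene in the replication machinery and in 4 related lists (points, red where the adjusted p was below 0.05), with the list median as a black line; the blue bar for all genes tested spans the 25th to 75th percentile and its line the 10th to 90th. The medians run from -0.06 for mitosis to 0.14 for dNTP supply, and the 25th to 75th percentiles of all genes tested are -0.14 and 0.13.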

How the data were processed

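RNA-seq of 3 Abcc4-/- and 3 WT mouse samples was used, with a stranded mRNA kit and paired-end reads per the labels' protocols. The submitters' processing notes name mm10, RSEM 1.3.1 and STAR 2.7. The authors deposited expected counts per gene, not normalized, and TPM, scaled within each sample. The 92 spike-in entries held 0 counts and were left out. Replicate numbers came from the titles. Whether each sample is a separate animal is not stated in the labels. P-values and intervals therefore set the genotype difference against sample-to-sample spread only, and part of that spread may be technical. They may not hold for other animals.

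Rounding the deposited expected counts gave the input to edgeR 4.0.16 in R 4.3.3 (TMM, default low-count filter, robust quasi-likelihood test, Benjamini-Hochberg over 16493 genes, adjusted p below 0.05). All 41 members passed the filter. Intervals of fold changes come from that fit. DESeq2 1.42.0 and limma 3.58.1 served as alternatives. On simulated counts the test recovered smaller changes less often than larger ones and called more unchanged genes than the threshold aims for. The members, lists, tests and naming rule (all members, full values for those called and for the smallest p of each role, up to 3 genes of each related list) were chosen with earlier results of these data known. A gene that the rule names is not reported here. Positions came from GENCODE M21 on GRCm38, which matched all 41 identifiers.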

Additional observations from a re-analysis of the deposited data

How the results depend on the processing

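Of the 41 members, 35 kept their side of the threshold in all 18 alternatives, and 18 kept their direction in all of them. Those 35 were genes that were never called. Each of the 5 called members lost its call in some alternatives, from 2 for Cdc6 to 9 for Rpa2, and Cdt1 gained a call in 2. The count of 5 members called higher was 5 with RLE or upper-quartile factors, DESeq2, limma-voom, either low-count filter, thinning to the smallest library total and the replicate block. It was 4 with log2(TPM + 1) centred on the median gene, 3 with TPM rescaled without 10 neutrophil genes (chosen after seeing the data), and 0 with log2(TPM + 1) and log2(TPM + 0.1), where 1 member, Cdt1, was called lower. Leaving out 1 library gave 1 to 5 members higher and 0 lower. The members' median of 0.06 was -0.0322 and -0.0351 on log2(TPM + 1) and log2(TPM + 0.1) and 0.03 to 0.08 with 1 library left out. On those TPM scales the medians of origin licensing (-0.046 and -0.049), the MCM helicase (-0.0300 and -0.0303), clamp and loader (-0.0076 and -0.0077) and polymerases and primase (-0.0758 and -0.0767) changed sign. That of origin licensing was -0.0119 without Abcc4-/- replicate 1 (-0.0119 to 0.0834 with 1 library left out), and that of polymerases and primase -0.00042 without WT replicate 3 (-0.00042 to 0.0426) and -0.0108 with the rescaled TPM. Related genes called higher (7) numbered 0 on log2(TPM + 1) and log2(TPM + 0.1) and 2 to 7 with 1 library left out. Those called lower (4) numbered 7 on log2(TPM + 0.1), 2 centred, 1 rescaled and 2 to 5 with 1 library left out. Of all genes tested 2852 were called, 1778 on rescaled TPM and 1760 to 2415 with 1 library left out. The share of calls that were higher was 49.8% on counts, 28.4% on log2(TPM + 1) and 57.0% centred. The cause of the TPM differences was not tested. The replicate block gave 3157 calls and the same 5 members, and deviations of same-numbered samples correlated at -0.05 to -0.01 and no sample correlated best with its own number, so the numbers were not taken to pair the samples.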

Other observations

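Counts per TPM follow the length that the authors' RSEM run assigned to a gene, so a shift between the genotypes separates the 2 scales for that gene alone. Relative to the median of 12582 genes with a TPM of at least 1 in every library, Orc1 (log2 difference 0.13, Abcc4-/- minus WT) and Pold3 (0.12) were the members past 0.1, a size that 7.80% of those genes exceeded. Both differences had non-overlapping groups, as 32.8% of those genes did. Orc1 accordingly had a mean of 8.94 CPM in Abcc4-/- and 7.87 CPM in WT but 4.54 TPM in Abcc4-/- and 4.64 TPM in WT. Rfc3 went the other way (-0.10). Mcm7 had a log2 difference of 0.07 with non-overlapping groups, against -0.0057 for Mcm4, so the 2 scales differ for the ratio of these genes. The transcripts behind these shifts were not analysed here.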
